A study of Homo sapiens with 12 samples.

Results

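Antioxidant genes that are classical targets of the transcription factor NRF2 were followed in PANC-1 cells after miR-10b was added or inhibited. They are GCLM, GCLC, SLC7A11, GSR, TXNRD1, SRXN1, NQO1, HMOX1 and ME1, 9 of the 20046 gene symbols on the array. All 14 probes annotated to them were taken, and 13 of them were detected in enough arrays to be tested, among 21195 tested probes of 47231. PANC-1 is an established human line from a pancreatic ductal adenocarcinoma. It received 1 of 4 small RNA oligos for 20 h: premir miR-10b, an artificial precursor that supplies the microRNA miR-10b, premir control, antimir-10b, an inhibitor of miR-10b, and antimir control. Each oligo has 3 arrays, which the labels call biological replicates. The design is 1 cell line and 1 time, with a transfected oligo in every group, no untransfected cells and no oligo dose in the labels.

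NRF2 (gene NFE2L2) is held at a low level by KEAP1, which presents it for degradation. When electrophiles or oxidants modify KEAP1, NRF2 enters the nucleus, pairs with small MAF proteins and binds antioxidant response elements in front of genes that make glutathione, regenerate thioredoxin, detoxify quinones and supply NADPH. Pancreatic cancer cells are known for using this programme to keep reactive oxygen species low.

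Premir miR-10b replicate 2 stood apart from the other 11 arrays: 29.5% of its probes were detected, against 39.2% to 41.3% on the others. Over the tested probes its median correlation with the others was 0.797, while the lowest correlation among the other 11 was 0.980. Values of premir miR-10b are therefore first given from replicates 1 and 3, with 3 arrays in each other group, and values with replicate 2 follow. The 6 markers listed for the labelled line were detected on all 11 arrays. They are the epithelial KRT7, KRT8, KRT18, KRT19 and EPCAM, and VIM, which is no epithelial marker. Of 10 markers of other cells, PTPRC, PECAM1, CDH5, PRSS1, CPA1 and GCG were detected on none of the 11, COL1A2 and INS on 2, and CD68 and COL1A1 on all 11.

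GCLM, the modifier subunit of glutamate-cysteine ligase, fell with premir miR-10b on both of its probes. It was the one gene of the 9 with a called probe between premir miR-10b and premir control. Glutamate-cysteine ligase makes the first and rate-limiting step of glutathione synthesis, and GCLM lets the catalytic subunit GCLC work at cellular substrate levels. The 2 subunit genes are given here with the stretch around their start, because GCLM was called and its partner was not. Each window runs from 250 bases before to 50 bases after the start, from RefSeq, and capitals mark the antioxidant response element core TGACNNNGC or its reverse complement.
GCLM promoter window, GRCh38.p14 chr1:93909381-93909680 (- strand): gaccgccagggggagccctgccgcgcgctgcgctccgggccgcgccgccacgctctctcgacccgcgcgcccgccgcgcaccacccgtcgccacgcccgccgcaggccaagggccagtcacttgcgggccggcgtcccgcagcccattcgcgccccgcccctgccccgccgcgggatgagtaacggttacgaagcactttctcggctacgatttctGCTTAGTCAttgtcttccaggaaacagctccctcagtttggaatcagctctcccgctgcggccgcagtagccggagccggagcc
GCLC promoter window, GRCh38.p14 chr6:53545052-53545351 (- strand): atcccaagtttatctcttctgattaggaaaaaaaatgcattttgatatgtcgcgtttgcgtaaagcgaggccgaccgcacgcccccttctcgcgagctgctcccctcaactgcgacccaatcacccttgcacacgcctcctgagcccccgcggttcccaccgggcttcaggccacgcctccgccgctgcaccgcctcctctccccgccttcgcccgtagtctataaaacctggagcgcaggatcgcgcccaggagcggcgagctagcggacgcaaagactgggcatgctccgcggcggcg
The GCLM window holds 1 core match, TGACTAAGC on the strand opposite to the gene, at positions -34 to -26 from the start. The GCLC window holds no match, which says only that these letters are not within it.

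On the normalized log2 scale, GCLM stood at 9.58 and 9.55 on the premir miR-10b arrays, against 10.50, 10.44 and 10.10 on the premir control arrays. Both premir miR-10b arrays lay below every premir control array. The group mean was 9.56 ± 0.02 (SD, n = 2) for premir miR-10b and 10.34 ± 0.21 (SD, n = 3) for premir control. The difference was -0.78 ± 0.14 (SE; 95% interval -1.08 to -0.48; limma adjusted p = 0.0172), a fall of 1.72-fold. In a bulk sample, fewer cells expressing a gene and less of its RNA per cell cannot be told apart.

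The second GCLM probe gave the same direction. It stood at 6.12 and 6.07 on the premir miR-10b arrays, against 7.30, 7.18 and 6.92 on the premir control arrays, again with no overlap. Its difference was -1.04 ± 0.19 (SE; 95% interval -1.45 to -0.64; limma adjusted p = 0.0180), a fall of 2.06-fold. These are 2 of the 13 member probes called lower, where 0.425% of all tested probes were called lower. None of the 13 was called higher, where 0.212% of all tested probes were.

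The array that stood apart had the lowest GCLM level of the 12, 8.44, and its second GCLM probe was not detected, at 5.06. With all 12 arrays the change was -1.15 ± 0.27 (SE; adjusted p = 0.303) on the first probe and -1.38 ± 0.28 (adjusted p = 0.187) on the second. Both differences were larger and neither was called. The call was also lost on both probes without premir control replicate 1 (adjusted p = 0.0740 and 0.0796), without premir control replicate 2 (0.0862 and 0.0862) and without premir miR-10b replicate 3 (0.124 and 0.132), with changes of -0.70 to -0.76 on the first probe.

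**Figure D1:**
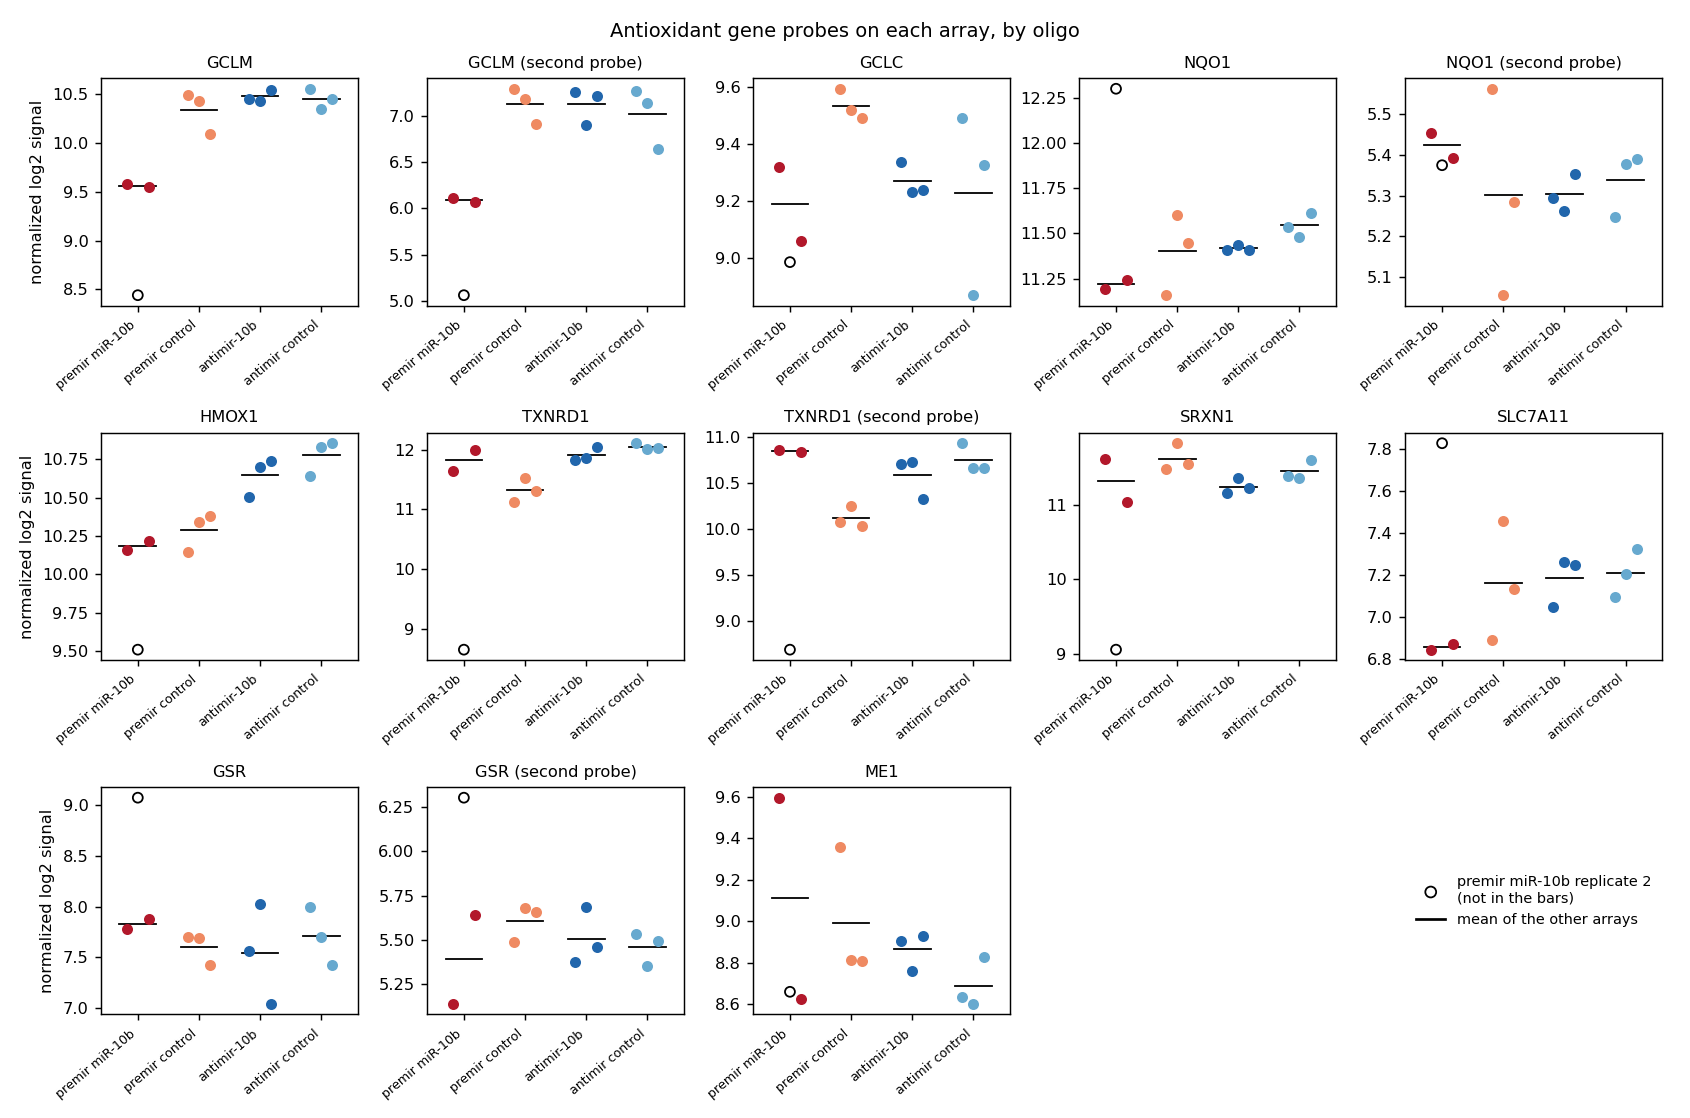
Normalized log2 signal of each tested member probe (1 panel each) on every array of the 4 oligo groups, premir miR-10b left of premir control and antimir-10b left of antimir control. Points are arrays, horizontal lines are group means over the 11 arrays, and the open circle is premir miR-10b replicate 2. In the GCLM panels, premir miR-10b replicates 1 and 3 (9.58 and 9.55) lie below all arrays of the other 3 groups.

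GCLC, the catalytic subunit of the same enzyme, did not pass the test. It stood at 9.32 and 9.06 on the premir miR-10b arrays, against 9.59, 9.52 and 9.49 on the premir control arrays, so the groups did not overlap. The difference was -0.35 (95% interval -0.70 to 0.01; adjusted p = 0.681). The second GCLC probe was detected on 0 of 12 arrays, with raw signals of 42.1 to 65.6, and gives no level.

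SLC7A11, the cystine and glutamate exchanger that brings in the cysteine glutathione synthesis needs, did not pass either. Its levels were 6.84 and 6.87 with premir miR-10b, against 6.89, 7.46 and 7.14 with premir control. The difference was -0.30 (95% interval -0.65 to 0.04; adjusted p = 0.750), and the arrays did not overlap, though the nearest pair differed little.

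GSR, glutathione reductase, which turns oxidised glutathione back to its reduced form with NADPH, had probes of opposite sign. The first stood at 7.78 and 7.88 with premir miR-10b, against 7.70, 7.70 and 7.43 with premir control, a difference of 0.22 (95% interval -0.29 to 0.73; adjusted p = 0.923). The second had a difference of -0.22 (95% interval -0.56 to 0.12; adjusted p = 0.869) and was detected on 1 of the 2 premir miR-10b arrays and on all 3 premir control arrays. Neither direction was past the test. With all 12 arrays the first GSR probe differed by 0.64 (adjusted p = 0.458).

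TXNRD1, the cytosolic thioredoxin reductase, was higher on premir miR-10b than on premir control arrays on both probes, but did not pass the test. The first probe stood at 11.64 and 12.003 with premir miR-10b, against 11.13, 11.53 and 11.31 with premir control, a difference of 0.50 (95% interval 0.17 to 0.83; adjusted p = 0.284). The second stood at 10.85 and 10.84 with premir miR-10b, against 10.08, 10.25 and 10.03 with premir control, a difference of 0.73 ± 0.15 (SE; 95% interval 0.40 to 1.05; adjusted p = 0.0502). Its call turned on the setting: it was called without antimir control replicate 1 (adjusted p = 0.0489) or without antimir-10b replicate 3 (0.0211), arrays that enter only through the estimate of spread. The array that stood apart read 8.65 and 8.69 on the 2 probes, and with it the differences were -0.56 (adjusted p = 0.608) and 0.01 (adjusted p = 0.992).

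The promoter windows of TXNRD1, which has 2 annotated starts with a window each, are given because TXNRD1 and GCLM lay on opposite sides of 0 in this comparison.
TXNRD1 promoter window, GRCh38.p14 chr12:104215529-104215828 (+ strand): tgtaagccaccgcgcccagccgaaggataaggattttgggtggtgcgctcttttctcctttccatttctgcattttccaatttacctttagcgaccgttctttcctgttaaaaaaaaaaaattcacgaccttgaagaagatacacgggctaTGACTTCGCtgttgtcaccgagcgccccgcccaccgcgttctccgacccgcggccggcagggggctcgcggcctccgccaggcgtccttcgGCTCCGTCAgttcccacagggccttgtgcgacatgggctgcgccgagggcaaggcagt
TXNRD1 promoter window, GRCh38.p14 chr12:104286782-104287081 (+ strand): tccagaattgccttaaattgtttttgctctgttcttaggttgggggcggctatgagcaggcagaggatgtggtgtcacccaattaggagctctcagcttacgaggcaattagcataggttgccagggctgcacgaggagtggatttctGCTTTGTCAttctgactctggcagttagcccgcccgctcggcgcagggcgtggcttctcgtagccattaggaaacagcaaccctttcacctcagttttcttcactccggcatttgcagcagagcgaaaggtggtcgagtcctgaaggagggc
The upstream window has TGACTTCGC at -99 to -91 and, on the opposite strand, TGACGGAGC at -8 to 1. The downstream one has TGACAAAGC on the opposite strand at -102 to -94. Of the 9 genes, 6 matched a RefSeq window, 7 windows in all, and 4 windows of 3 genes (GCLM, TXNRD1 and ME1) held the core. Over all 35116 windows of 300 bases, 13.3% held it. The ME1 window holds TGACTCAGC at -137 to -129, whose first 7 letters also fit the motif TGANTCA (found in 7.71% of all windows on either strand), and TGACGGTGC on the opposite strand at 12 to 20. No match was found in the windows of GCLC, NQO1 and SRXN1.

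The remaining members did not pass the test in this comparison. SRXN1, sulfiredoxin, which repairs overoxidised peroxiredoxins, stood at 11.61 and 11.03 with premir miR-10b, against 11.49, 11.83 and 11.55 with premir control, a difference of -0.30 (adjusted p = 0.796). With all 12 arrays the SRXN1 difference was -1.06 (adjusted p = 0.458). NQO1, a quinone reductase often used as a readout of NRF2, differed by -0.18 (95% interval -0.48 to 0.11; adjusted p = 0.873) on its first probe and by 0.12 (adjusted p = 0.930) on its second. The second NQO1 probe lay near background, detected on 2 of 2 premir miR-10b arrays and 1 of 3 premir control arrays. HMOX1, heme oxygenase 1, which opens the heme ring, differed by -0.10 (95% interval -0.39 to 0.18; adjusted p = 0.939). ME1, the cytosolic malic enzyme, which makes NADPH, stood at 9.60 and 8.63 with premir miR-10b, against 9.36, 8.81 and 8.81 with premir control, and differed by 0.12 (adjusted p = 0.962). With replicate 1 of premir miR-10b left out the difference was -0.37, and with replicate 3 left out 0.60, so ME1 has no settled sign here.

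Over the 13 member probes the median change was -0.18, and that of all tested probes was 0.00. Premir miR-10b replicates 1 and 3 lay below all premir control arrays on 4 of the 13 (both GCLM probes, GCLC and SLC7A11), and above them on 3 (both TXNRD1 probes and GSR). Over all tested probes such separation of these arrays occurred for 9.84% downwards and 9.81% upwards. Replicate 2 read SLC7A11 at 7.83 and the TXNRD1 probes at 8.65 and 8.69, on the other side of the premir control arrays. The unadjusted p was under 0.05 for 4 of 13 member probes, the probes of GCLM and TXNRD1, and for 1634 of 21195 probes overall.

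**Figure D2:**
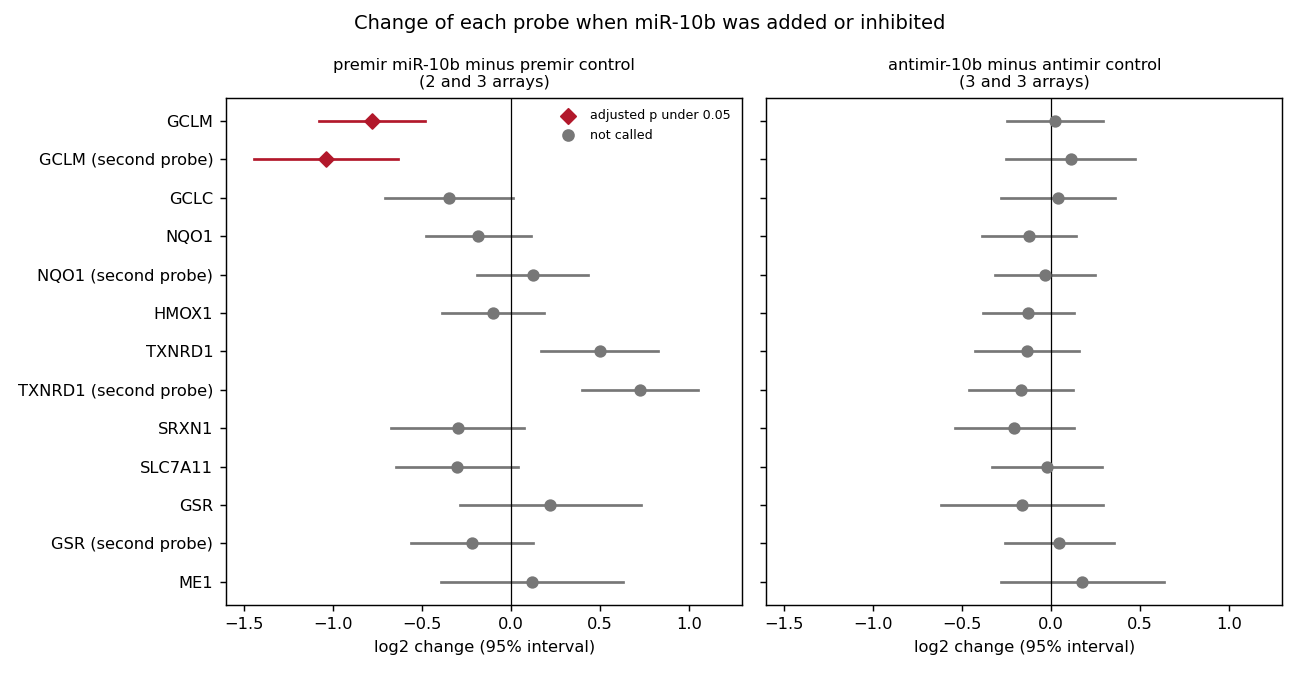
Log2 change of each tested member probe with its 95% interval, premir miR-10b minus premir control in the left panel and antimir-10b minus antimir control in the right panel. Marked points passed the adjusted threshold: the GCLM probes at -0.78 and -1.04 on the left, and none on the right.

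Inhibition of miR-10b left none of the 9 genes past the test. GCLM stood at 10.45, 10.43 and 10.55 on the antimir-10b arrays, against 10.56, 10.35 and 10.45 on the antimir control arrays, which overlap. The difference was 0.02 (95% interval -0.24 to 0.29) on the first probe and 0.11 (95% interval -0.25 to 0.47) on the second. The intervals leave room for a change in either direction, up to 1.39-fold higher on the second probe.

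The other members differed by -0.21 (SRXN1, the lowest) to 0.18 (ME1, the highest), and every interval of the 13 included 0. TXNRD1 differed by -0.13 and -0.17, HMOX1 by -0.13, GCLC by 0.04 and SLC7A11 by -0.02. NQO1 was the one member whose groups did not overlap: 11.41, 11.44 and 11.41 with antimir-10b, against 11.53, 11.48 and 11.62 with antimir control, a difference of -0.13 (adjusted p = 0.999). That is 1 of 13 probes separated downwards and 0 upwards, where 4.09% and 4.64% of all tested probes were. Limma called 0 of 13 member probes, and 0% of the 21195 tested probes. An unadjusted p under 0.05 was found for 0 of the 13 and for 480 overall. The median change of the members was -0.04.

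The premir and antimir effects were then set against each other in a contrast of the 2 differences. For GCLM the premir effect minus the antimir effect was -0.80 ± 0.19 (SE; 95% interval -1.21 to -0.40; adjusted p = 0.140), and -1.15 ± 0.25 (adjusted p = 0.103) on the second probe. TXNRD1 gave 0.63 (adjusted p = 0.503) and 0.89 (adjusted p = 0.129). No member probe passed, where 0.302% of all tested probes did. The fall of GCLM in 1 arm and not in the other is therefore not shown as a difference between the arms.

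The control oligos were compared because the premir comparison leans on premir control alone. Antimir control was higher than premir control for TXNRD1 and HMOX1, without passing the test. TXNRD1 stood at 12.11, 12.01 and 12.03 with antimir control, against 11.13, 11.53 and 11.31 with premir control, a difference of 0.73 (95% interval 0.43 to 1.02; adjusted p = 0.0598). The second TXNRD1 probe differed by 0.64 (95% interval 0.34 to 0.93; adjusted p = 0.107). HMOX1 stood at 10.64, 10.83 and 10.85 with antimir control, against 10.14, 10.34 and 10.38 with premir control, a difference of 0.49 (95% interval 0.23 to 0.74; adjusted p = 0.193). The groups did not overlap on these 3 of the 13 member probes, all higher, and on 0 lower, where 10.3% and 9.25% of all tested probes were so separated.

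GCLM did not separate the controls, with differences of 0.11 (adjusted p = 0.780) and -0.11 (adjusted p = 0.847). Limma called 0 of 13 member probes, where 0.189% of all tested probes were called. TXNRD1 passed on its first probe when either premir miR-10b array was left out (adjusted p = 0.0258 each), which changes only the estimate of spread.

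Both premir oligos were next set against the 6 arrays of the antimir arm as 1 set, a comparison added after the values were seen. Against these arrays GCLM fell with premir miR-10b and TXNRD1 fell with premir control. GCLM averaged 9.56 ± 0.02 (SD, n = 2) with premir miR-10b and 10.47 ± 0.08 (SD, n = 6) in the antimir arm, a difference of -0.90 ± 0.12 (SE; adjusted p = 0.00261). The second GCLM probe differed by -0.98 ± 0.17 (SE; adjusted p = 0.0157), and its call was lost without premir miR-10b replicate 1 (0.0806) or 3 (0.0602). With all 12 arrays the 2 differences were -1.28 (adjusted p = 0.112) and -1.33 (adjusted p = 0.123).

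Premir control and the antimir arm differed in GCLM by -0.12 (adjusted p = 0.718) and 0.06 (adjusted p = 0.924). GCLM on the premir miR-10b arrays lay below every array of the other 3 groups. The comparisons share the premir miR-10b arrays. Of the 13 member probes, 2 were called lower and 0 higher with premir miR-10b against the antimir arm, where 0.491% and 0.0613% of all tested probes were.

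TXNRD1 had another order of groups. On its first probe premir miR-10b and the antimir arm averaged 11.82 ± 0.26 (SD, n = 2) and 11.98 ± 0.11 (SD, n = 6), a difference of -0.16 (adjusted p = 0.805), and on its second 10.84 ± 0.01 and 10.67 ± 0.20, a difference of 0.17 (adjusted p = 0.779). Premir control averaged 11.32 ± 0.20 (SD, n = 3) on the first probe, a difference from the antimir arm of -0.66 ± 0.12 (SE; adjusted p = 0.0296), and 10.12 ± 0.12 on the second, with a difference of -0.55 (adjusted p = 0.0705). Over the 11 arrays, premir control had the lowest of the 4 group means on both TXNRD1 probes. The call was lost without premir control replicate 1 or 3, without any 1 of the antimir control arrays and without any 1 of the antimir-10b arrays, at adjusted p of 0.0529 to 0.194. With all 12 arrays premir miR-10b differed from the antimir arm in TXNRD1 by -1.22 (adjusted p = 0.334) and -0.54 (adjusted p = 0.403). The differences of premir control, -0.66 and -0.55, were then not called either.

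HMOX1 was lower in both premir groups than in the antimir arm, without passing the test. It differed by -0.52 (adjusted p = 0.0759) with premir miR-10b and by -0.42 (adjusted p = 0.138) with premir control. The 2 premir groups themselves differed by -0.10. With premir control, 1 member probe was called lower than the antimir arm and 0 higher, where 0.311% and 0.0896% of all tested probes were.

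**Figure D3:**
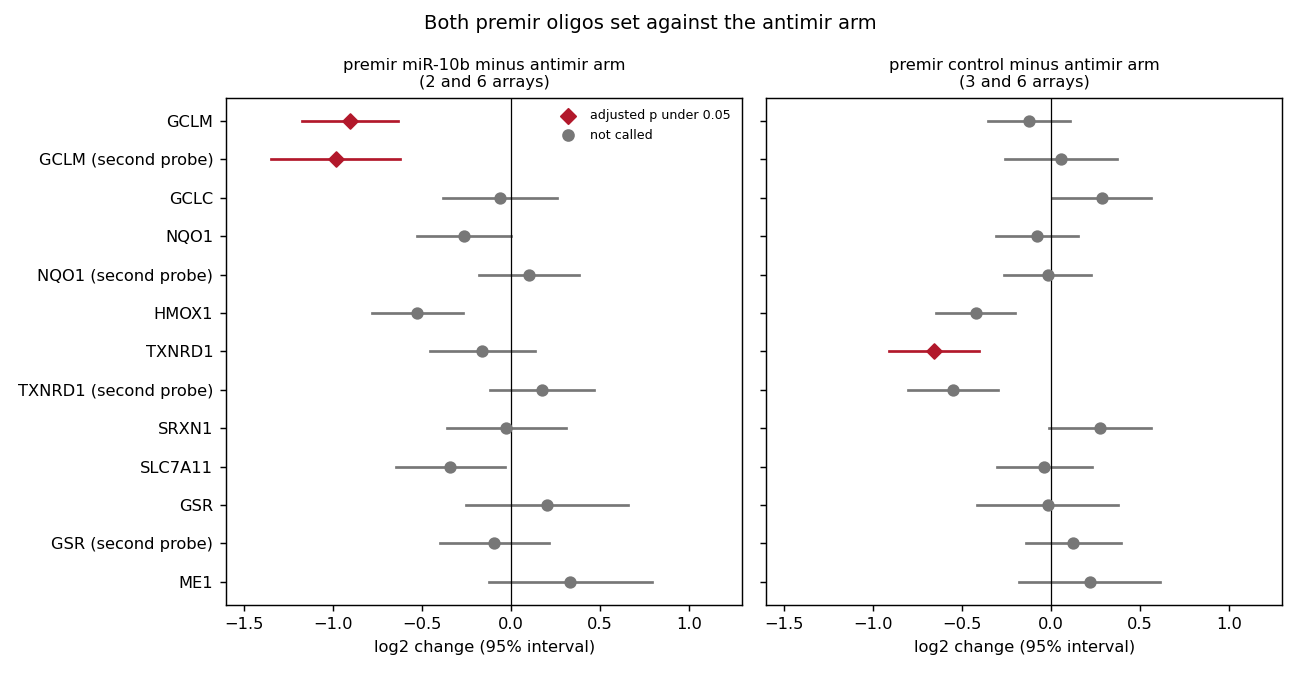
Log2 change of each tested member probe with its 95% interval, for premir miR-10b (left) and premir control (right), each minus the mean of the 6 antimir-arm arrays. GCLM lies at -0.90 and -0.98 on the left and at -0.12 and 0.06 on the right, whereas TXNRD1 lies at -0.16 and 0.17 on the left and at -0.66 and -0.55 on the right.

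The wider pathway was read from 6 lists of genes, chosen with earlier results of these data known. Their counts of called probes are therefore a description and no test of a list. In the premir comparison 2 probes of these lists were called, 1 of BTRC and 1 of SLC48A1, both lower. Among NRF2 regulators, 1 of 13 tested probes was called lower and 0 higher, with a median change of -0.05, where 0.425% and 0.212% of all tested probes were called. BTRC encodes an F-box protein that, in the ligase it belongs to, marks NRF2 for degradation independently of KEAP1, along with beta-catenin and other substrates.

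BTRC was not detected on either premir miR-10b array, with raw signals of 75.9 and 65.3, against 148.0, 145.7 and 160.2 on the premir control arrays, where it was detected. Its normalized means were 5.11 with premir miR-10b and 6.57 with premir control (limma adjusted p = 0.00133). With undetected arrays raised to their lowest detected signal, it was at least 2.36-fold lower in the main setting. On the same footing it was at least 2.02-fold lower than in the antimir arm (adjusted p = 0.00187). Under other settings the fitted differences ran from -1.57 to -0.91 and from -1.34 to -0.75, so these folds are no minimum beyond the main setting. The contrast of its premir and antimir effects passed (adjusted p = 0.0262), but that call was lost with all 12 arrays (adjusted p = 0.327). Leaving out any 1 of these arrays also ended it: the antimir control arrays, antimir-10b replicate 1, premir miR-10b replicate 3, and replicates 2 and 3 of premir control, at adjusted p of 0.0568 to 0.110. BTRC was not detected on the array set apart either. NFE2L2, which encodes NRF2 itself, and KEAP1 did not pass, at -0.20 for NFE2L2 and at -0.18 and -0.07 for the KEAP1 probes.

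None of the 54 tested probes for glutathione synthesis, use and export was called, and their median change was -0.09. Of all tested probes, 0.425% were called lower and 0.212% higher. MGST1, a microsomal glutathione transferase, had probes at -0.49 (adjusted p = 0.354), -0.50 and 0.10. The third lay near background, with raw signals of 106 and 97.5 with premir miR-10b, against 86.7, 87.8 and 103.8 with premir control. GGCT, which takes part in glutathione breakdown by cutting gamma-glutamyl peptides, stood at -0.54 (adjusted p = 0.415) and -0.34. The difference of antimir control from premir control was -0.53 and -0.58 on these probes, also without passing the test.

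None of the 25 probes for thioredoxins, peroxiredoxins and peroxide removal was called (0.425% lower and 0.212% higher over all tested probes), with a median of -0.00. PRDX6, a peroxiredoxin that uses glutathione, stood at -0.62 ± 0.16 (SE; adjusted p = 0.154), and TXN, thioredoxin, the substrate of TXNRD1, at -0.06 and -0.27. None of the 18 probes for NADPH supply was called, with a median of 0.01. NNT, the mitochondrial transhydrogenase, stood at -0.52 and -0.01, and NADK2, the mitochondrial NAD kinase, at -0.24. With each array left out in turn, the change ran from -0.89 to -0.20 for GGCT and from -0.79 to -0.20 for the second MGST1 probe. It ran from -0.81 to -0.43 for PRDX6 and from -1.06 to 0.015 for NNT. The lowest values came without premir miR-10b replicate 1 and the highest without replicate 3, so each end rests on 1 premir miR-10b array.

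Among detoxification, heme and iron genes described as NRF2 targets, 1 of 24 probes was called lower and 0 higher (0.425% and 0.212% of all tested probes), with a median of -0.05. The called probe belongs to SLC48A1, a heme transporter, at -0.71 ± 0.13 (SE; adjusted p = 0.0217). The other SLC48A1 probe stood at -0.33 (adjusted p = 0.586). The called probe read 8.75 on the array set apart and 6.17 and 6.35 on the other premir miR-10b arrays, against 6.85, 7.04 and 7.03 with premir control, and with all 12 arrays the difference was 0.12. Its call was lost without premir control replicate 2 (adjusted p = 0.1) or 3 (0.109) and without premir miR-10b replicate 1 (0.0738) or 3 (0.0630).

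None of the 17 probes of ATF4 targets and amino acid stress was called (0.425% lower and 0.212% higher over all tested probes). This list was added because SLC7A11 is also an ATF4 target. Its median was 0.03, with PSAT1, an enzyme of serine synthesis, at 0.32 and DDIT3, a stress transcription factor, at -0.30. Between antimir-10b and antimir control, and between the control oligos, 0 probes of the 6 lists were called. Over all tested probes the shares called were 0% and 0.189%. The lists have 11 genes that the array annotation does not name.

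**Figure D4:**
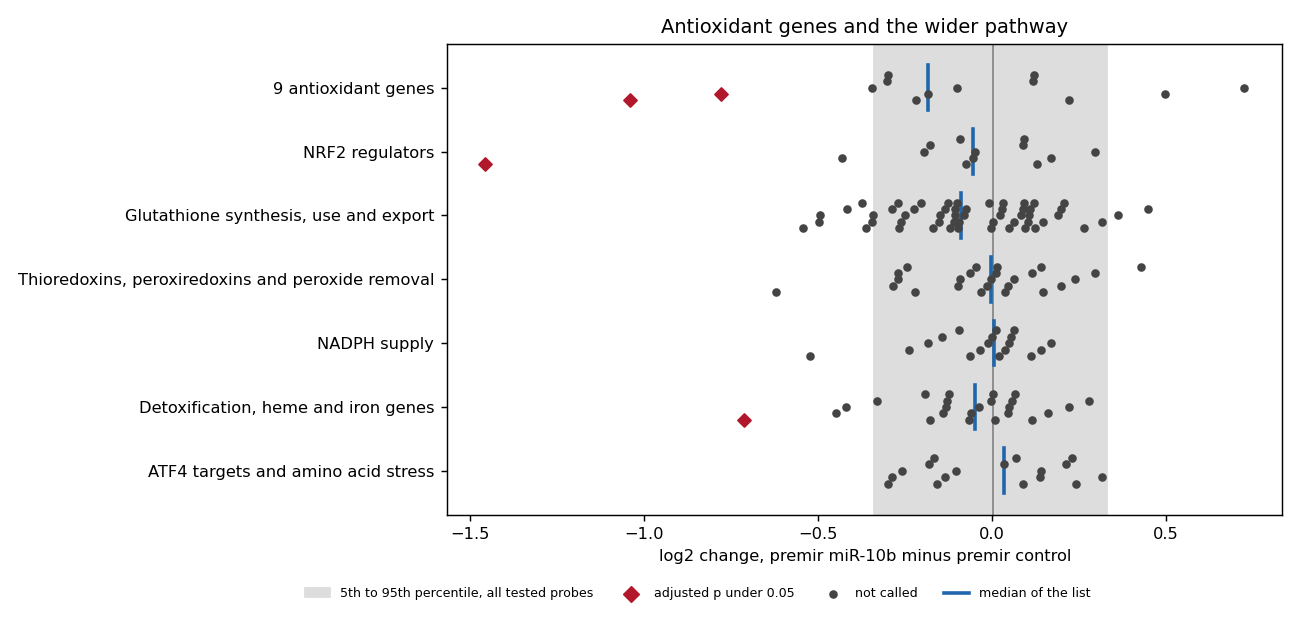
Log2 change, premir miR-10b minus premir control, of every tested probe of the 9 antioxidant genes and of the 6 lists, 1 row per list. Points are probes, diamonds passed the adjusted threshold, bars are list medians, and the grey band spans the 5th to 95th percentile of all tested probes, -0.34 to 0.33. The diamonds are the GCLM probes, SLC48A1 at -0.71 and BTRC, whose plotted fitted value of -1.46 is no measured size because BTRC was not detected with premir miR-10b.

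Among the tested probes of the 9 genes, the first GCLM probe correlated most with its own second probe. Across the 11 arrays, which share 4 oligos and are not independent draws, the correlation of the first GCLM probe was 0.90 with its own second probe, 0.62 with SLC7A11, 0.60 with HMOX1, 0.56 with NQO1 and 0.29 with its partner GCLC. It was 0.07 with the first TXNRD1 probe and -0.29 with the second. After subtraction of the group means the correlation was 0.52 with the second GCLM probe, 0.48 with GCLC, -0.09 with SLC7A11, -0.24 with the first NQO1 probe and -0.49 with HMOX1. With ME1 it was -0.27 over the 11 arrays and 0.38 after the subtraction. The positive correlations with SLC7A11, the first NQO1 probe and HMOX1 were thus not seen after the subtraction. With 11 arrays in 4 groups, such values within groups are uncertain.

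The genes whose probe followed GCLM most closely over the 11 arrays, by Pearson correlation, were EDEM1 (0.97), CTNNBIP1 (0.97), GOLGA3 (0.96), H3-5 (0.96) and MCMBP (0.96). GCLM differs between the arrays mainly by its low level with premir miR-10b, so a low level there is built into the choice of these genes, and their differences are a description with no test. Premir miR-10b minus premir control was -1.20 for EDEM1, -0.48 for CTNNBIP1, -1.05 for GOLGA3 and -1.23 for MCMBP. H3-5 read -1.27, but it has near-identical histone copies, so its probe is uncertain. None of these 5 is a member of the lists above.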

How the data were processed

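RNA of PANC-1 cells was read on Illumina BeadChip arrays. The non-normalized table the authors deposited holds, per probe and array, a linear bead intensity that was not brought to a common scale between arrays, as its name and values show. It also holds a deposited detection p-value per probe and array, low where signal exceeds background. The labels and headers name neither slides nor scanning software. The deposited scaled intensity values equal these values times 1 constant per array, from 0.927 to 1.12.

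Analysis used R 4.3.3 and limma 3.58.1: neqc (normexp background correction from detection p-values, offset 16, quantile normalization, log2) on all 12 arrays. Probes with a detection p under 0.05 in at least 3 arrays were tested one by one (lmFit and eBayes, 4 group means, two-sided), without premir miR-10b replicate 2. Benjamini-Hochberg adjustment ran over 21195 probes and a probe was called at an adjusted p under 0.05. Intervals are at 95%. Of the 47231 probes, 30113 have 1 gene symbol, 8 several and 17110 none. Where a gene has several probes, the one of highest mean bears the gene's name and the next is its second probe. Levels of different probes were not set against each other. The fit was tested on simulated data.

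Replicate numbers carry no stated pairing. Same-numbered arrays of the premir groups had correlations of their deviations from the group means of 0.42 (replicate 1) and 0.19 (replicate 3). In the antimir groups these were 0.16, -0.08 and 0.37. With so few arrays these values do not settle whether same-numbered arrays share an effect. The main fit has no replicate block, and a fit with one is among the alternatives.

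The 9 genes, 6 pathway lists and the omission of that array were chosen with earlier results of these data known. Named besides all probes of the 9 genes are, per list, called members, or the 2 genes of smallest p where none was called, and the 5 genes whose probe correlated best with GCLM. NRF2 and its partner KEAP1 were added after their values were seen. Comparisons with the 6 antimir-arm arrays were added after seeing the data. Alternatives were all 12 arrays, normalization of 11 arrays, the authors' scaled values, no filter, median centring, no background correction, an offset of 50, detection p under 0.01 in all 11 arrays, 1 probe per gene, a replicate block, trended and robust variances, array weights, only the compared arrays, and each array left out. Promoter windows were searched on both strands.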

Additional observations from a re-analysis of the deposited data

Results flagged for a closer look

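Premir miR-10b replicate 2, which the tests leave out, read some members above all 11 other arrays. NQO1 stood at 12.30 on it, against at most 11.62 on the others. SLC7A11 stood at 7.83, against at most 7.46. GSR stood at 9.08 on its first probe, against at most 8.03, and at 6.30 on its second, against at most 5.68. Its raw signals for these probes were 2965.9, 117.5, 261.7 and 79.2. The same array read GCLM, TXNRD1, SRXN1 and HMOX1 below all 11 other arrays.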

How the results depend on the processing

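Precision is limited by 2 or 3 arrays per group, and the second NQO1 and GSR probes lie near background. In premir miR-10b versus premir control 1 member gene was called (GCLM). The number was 0 with all 12 arrays and with array weights, and 2 (GCLM and TXNRD1) with median centring, an offset of 50, no background correction and trended and robust variances. Leaving out each array gave 0 to 2. With only the compared arrays GCLM kept its call on the second probe, with an adjusted p of 0.169 on the first. Over 24 alternatives the GCLM change ran from -1.15 to -0.70 and was called in 18, and over 23 that of the second probe ran from -1.38 to -0.62 and was called in 15. BTRC was called in all 23 in which it was tested, and in 12 of 22 for the contrast of effects, without a call for an offset of 50 (adjusted p of 0.0983), no filter (0.102) and all 12 arrays. Calls over all probes were 135, with 23 for all 12 arrays, 84 and 81 without premir control replicate 2 or 3, 74 with array weights, 73 without premir miR-10b replicate 3, 59 with only the compared arrays and 374 without premir miR-10b replicate 1. Antimir-10b versus antimir control had 0 calls of any probe under all 24 alternatives, and the contrast of effects 0 member calls under all 23, with 0 to 208 calls over all probes. Antimir control versus premir control had 0, but 1 (TXNRD1) without background correction, with trended and robust variances and with only the compared arrays, 2 (HMOX1 and TXNRD1) with array weights, and 0 to 1 with each array left out. For the comparisons added after seeing the data, premir miR-10b versus the antimir arm had 1, but 0 with all 12 arrays and 2 (GCLM and HMOX1) with an offset of 50 and no background correction. Premir control versus the antimir arm had 1 (TXNRD1), but 0 with all 12 arrays and without a filter, and 0 to 1 with each array left out. Calls over all probes ran from 4 to 173 between the controls, from 25 to 180 for premir miR-10b and from 6 to 340 for premir control against the antimir arm.

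With all 12 arrays some named probes changed sign. In premir miR-10b versus premir control these were the second GSR probe at 0.085, NQO1 at 0.18, SLC7A11 at 0.021, TXNRD1 at -0.56, NADK2 at 0.20, the second GGCT probe at 0.15, ME1 at -0.03, the third MGST1 probe at -0.11 and the second NNT probe at 0.46, and the called SLC48A1 probe at 0.12. In the contrast of effects they were the second GSR probe at 0.038, SLC7A11 at 0.044, NQO1 at 0.30, HMOX1 at -0.20 and TXNRD1 at -0.43. Against the antimir arm they were NQO1 at 0.10, the second GSR probe at 0.21 and the second TXNRD1 probe at -0.54. With each array left out, among differences larger than their standard error, that from premir control ran from -0.47 to 0.033 for the second GSR probe, from -0.82 to 0.13 for the second GGCT probe and from -1.06 to 0.015 for NNT, and that from the antimir arm from -0.15 to 0.82 for ME1 and from -0.34 to 0.021 for TXNRD1. The ends of these ranges came from leaving out premir miR-10b replicate 1 or 3. The cause was not tested.

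With the replicate number as a block, 1 member gene (GCLM) was called in premir miR-10b versus premir control, among 107 called probes, 0 in the other planned comparisons, and 1 in each comparison with the antimir arm. The block cost SLC48A1 its call (-0.67, adjusted p of 0.0629) and moved the count in the contrast of effects to 38 from 64, and it changed no other call of a member probe, of BTRC in the 3 comparisons given, or of another named probe against premir control.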
